A study of Mus musculus with 36 samples.

Results

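Liver RNA of 6 mice without the insulin receptor in hepatocytes was set against that of 6 control mice, all killed in the dark phase at Zeitgeber time (ZT) 16, when mice feed. The 12 arrays were taken by their titles from a series of 36, which also holds both genotypes at ZT8 and ZT12 with 6 mice in each group. The knockout mice carried an Insr gene with loxP sites around 1 exon and a tamoxifen-inducible Cre recombinase driven by the transthyretin promoter, on a C57BL/6J background. Controls were of the wild-type receptor genotype. Whether they carried the Cre transgene, and when tamoxifen was given, is not given in the sources used here. All mice were male, 11 weeks old and had chow at all times, and each gave 1 array. Nothing in the labels ties replicates to litters, so each mouse was treated as independent. The limma p-values weigh a difference against the spread between mice within groups, pooled over all 36 arrays.

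Insulin rises with feeding, binds its receptor on the hepatocyte and, through the insulin receptor substrates, phosphoinositide 3-kinase and AKT, keeps FoxO transcription factors out of the nucleus. In the fed liver this pathway favours glycolysis, glycogen storage and the making of fatty acids through SREBP-1c, and holds down gluconeogenesis and Igfbp1. Feeding is also a timing signal for the liver clock, a loop in which PER and CRY proteins repress the BMAL1 and CLOCK proteins that drive them.

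Expression is given as log2 intensity minus that of the array's 75th percentile, so that 0 is that percentile, and a log2 ratio is knockout minus control. A gene is called when its adjusted p in the limma fit over all genes was under 0.05, and it is said to rise or fall only then. The 75th percentile signal of the 12 arrays ran from 311.1 to 461.2 intensity units, and 54.7% to 63.1% of spots were well above background. Pairs of arrays of 1 group had a Pearson r of 0.981 to 0.992 across genes.

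Of the 12 arrays, 2 stood apart from their group. In knockout replicate 6, 1303 genes lay 2-fold or more from the mean of the other 5 knockouts, against 390 to 875 genes for each of those. Esm1 was at 2.22 on that array (other knockouts -3.87 to -2.57), Rgs16 at -0.98 (3.39 to 4.65), Asns at 3.37 (-0.95 to 0.36) and Myc at 1.42 (-1.69 to -0.65). Control replicate 6 was the farthest control, with 933 such genes against 410 to 906. Both came from wash batch 1, which also held knockout replicate 3, and both had high scores on the second principal component (46 and 36.3, other arrays -34.6 to 12.4), which held 10.5% of the variance of the 12 arrays. The first component held 46.9% and separated the genotypes, with controls at -54.5 to -37.2 and knockouts at 36.2 to 62.3. For several results that depend on these arrays, values are given with and without them.

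Insr itself was lower in every knockout. Its main probe (A_55_P2173927, chr8:3155472-3155531 on mm9) lay between -1.85 and -1.24 in controls, with a median of -1.70, and between -3.75 and -3.08 in knockouts, with a median of -3.17. The groups did not overlap, and the log2 ratio was -1.65 (SE 0.13, limma adjusted p 2.95e-11; exact two-sided permutation p 0.00216, the smallest that 6 against 6 arrays can give). By group means 32.3% of the control signal remained. The size of the fall depended on the processing. The log2 ratio was -0.92 with normexp background correction, -1.19 in the authors' deposited table and -1.12 with the probes of a gene averaged. A dimmer second probe (A_52_P6490, chr8:3159473-3159532) had a log2 difference of -0.58 (67.1% of the control signal, exact two-sided permutation p 0.0584) and was above background in 6 controls and 4 knockouts. Since whole liver was measured, fewer cells of a type and less RNA per cell cannot be told apart here or below, and it was not worked out which exon this probe lies in.

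At ZT16, 9156 of 22883 genes (40%) were called. Of these, 4570 (20%) were higher and 4586 (20%) lower in knockouts. The change was at least 2-fold in 892 of the higher and 709 of the lower genes, at least 4-fold in 170 and 171, and at least 8-fold in 50 and 50. The balance depended on the scaling: with each array centred on its median, 3137 genes were higher and 5913 lower (34.7% higher, against 49.9%), and the median ratio of all genes was -0.09, against 0.003. Without replicate 6 of both genotypes 8487 genes were called, 4189 higher and 4298 lower, and 1575 of them changed at least 2-fold. With 40% of all genes called, a list with a like share of called members does not stand apart.

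**Figure D1:**
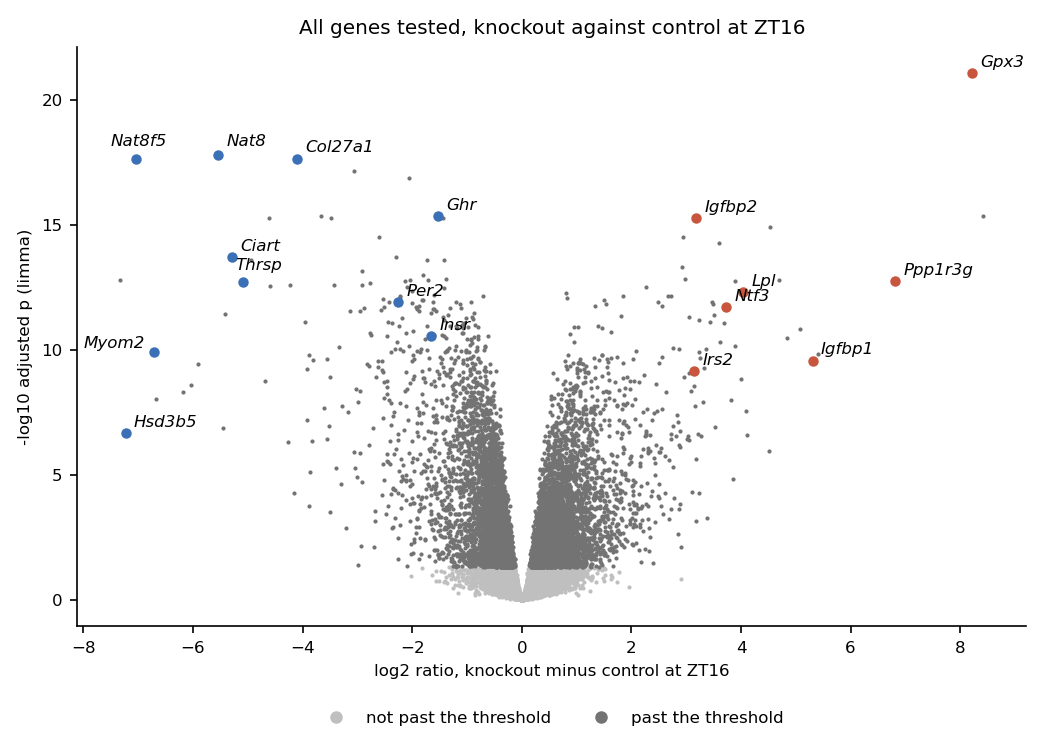
Each point is 1 of the 22883 genes tested, with the log2 ratio of knockout to control at ZT16 on the x axis and the -log10 of the limma adjusted p on the y axis. Dark points passed the threshold of 0.05, and the named genes are those described in the text, from Hsd3b5 at -7.23 to Gpx3 at 8.21.

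The largest rise among genes well above background on all 12 arrays was that of Gpx3, a secreted glutathione peroxidase. It lay between -2.86 and -1.36 in controls (median -2.18) and between 5.42 and 6.57 in knockouts (median 6.16), a log2 ratio of 8.21 (SE 0.23, adjusted p 8.89e-22). Every knockout was far above every control. Other large rises were those of Igfbp1 (5.30), the uncharacterised genes Gm15998 (4.69) and 3930402G23Rik (4.53), Lpl (4.04), the neurotrophin gene Ntf3 (3.72), Tango6 (3.59), the tubulin gene Tuba8 (3.52), the elastase gene Cela2a (3.48), Tbc1d30 (3.47) and Fst (3.35). In each of these 11 genes the groups did not overlap, which was the case for 19.3% of all genes and was part of the rule that picked these.

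Nat8f5, which encodes an acetyltransferase of the NAT8 family, was among the genes that fell furthest. It lay between 3.61 and 4.61 in controls (median 4.37) and between -4.17 and -2.21 in knockouts (median -2.53). The log2 ratio was -7.04 (SE 0.27, adjusted p 2.31e-18). Other large falls were those of the muscle M-band gene Myom2 (-6.70), the melanin synthesis gene Dct (-5.90), Nat8 (-5.54), the pseudogene Serpina4-ps1 (-5.44), Thrsp (-5.08), the activin subunit gene Inhbe (-4.60), Gm30692 (-4.26), the collagen gene Col27a1 (-4.09), the deiodinase gene Dio1 (-3.92) and the carbonic anhydrase gene Car3 (-3.88). All 11 of these rises and all 11 of these falls were also called in the same direction at ZT8 and ZT12.

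Probes of a gene did not always move alike. The brightest probe of Lpl and 4 others had ratios between 3.34 and 4.22, and 1 had 0.36. The second probe of Dct gave -0.35 and that of Tango6 gave 0.07, so those changes rest on 1 probe each. Skeletal muscle markers did not move with Myom2: 0 of 4 were called by limma and 0 had an unadjusted p under 0.05, with a median ratio of -0.12. Beside Cela2a, 2 other pancreas markers were measured, Ctrb1 (-0.38, a call that 8 of the 12 single arrays ended when left out) and Cel (-0.13, not called), and 5 of the 8 on the list were not tested.

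**Figure D2:**
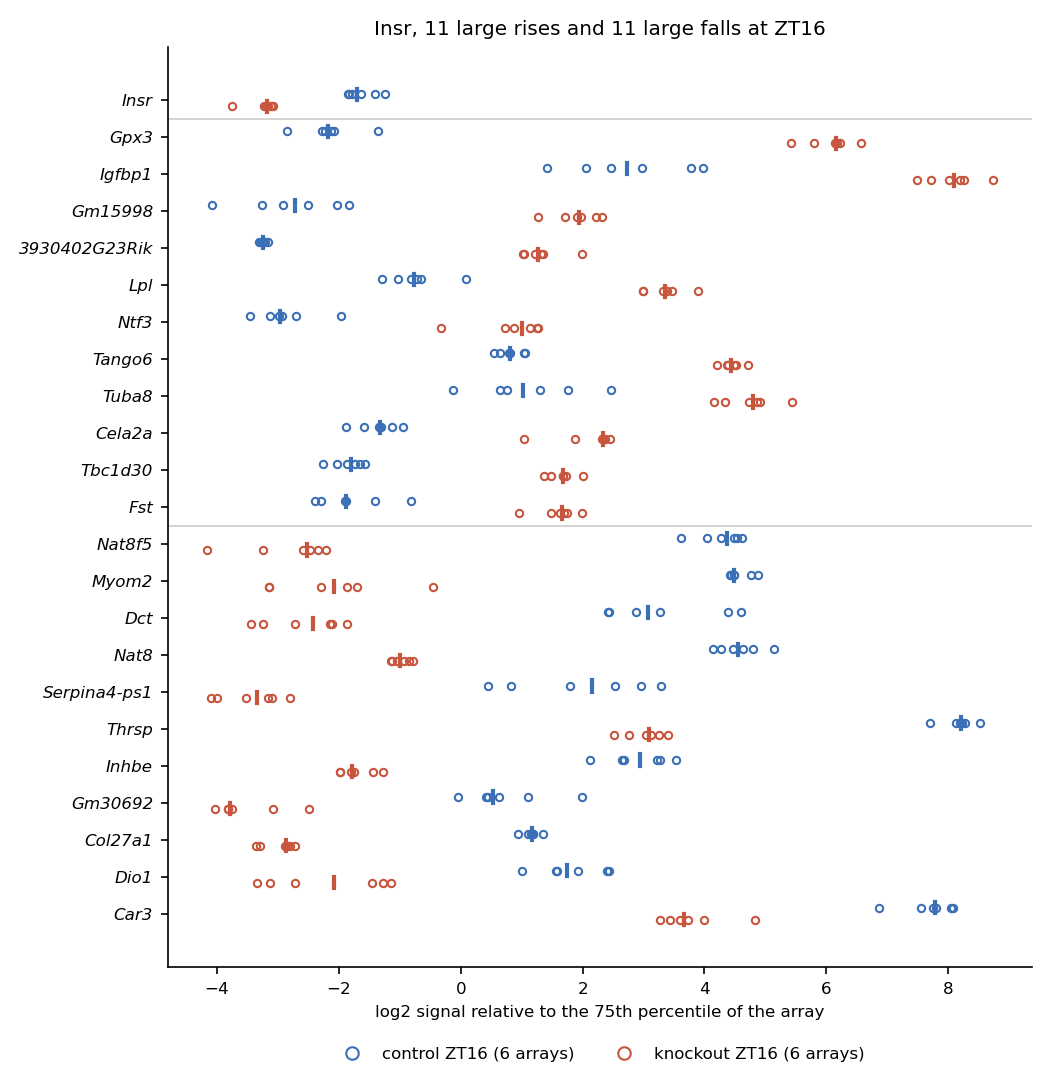
Log2 level (scaled to each array's 75th percentile) on the x axis, for Insr, 11 large rises and 11 large falls on the y axis. Open circles are single arrays (6 controls and 6 knockouts) and short bars are group medians. The groups are separate for every gene shown, and Thrsp moves from a control median of 8.21 to a knockout median of 3.09.

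Where all 6 arrays of 1 genotype and none of the other were well above background, the fold is a lower bound, taken against the dimmest signal that passed as above background on each array. Among genes with a symbol there were 20 such rises and 12 such falls. The defensin gene Defb1 was at least 7.65-fold higher in knockouts, the secreted Wnt modulator gene Sfrp4 at least 6.25-fold and the protease inhibitor gene Spink5 at least 4.53-fold. The clock repressor gene Ciart was at least 13.9-fold lower, Nat8f6 at least 8.02-fold and the serpin gene Serpina12 at least 6.76-fold.

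Within insulin signalling, 16 of 27 genes were called, 10 higher and 6 lower, with a median log2 ratio of 0.12. With median-centred arrays 7 were higher and 9 lower, with a median of 0.03. Irs2, the receptor substrate that FoxO factors induce, lay between 0.43 and 2.68 in controls (median 1.22) and between 4.12 and 4.83 in knockouts (median 4.55). Its log2 ratio was 3.14 (SE 0.29, adjusted p 7.35e-10). Irs1 was not called (0.22).

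Further down the pathway, Pik3r1, the regulatory subunit of phosphoinositide 3-kinase, fell in all knockouts. It lay between 1.80 and 2.55 in controls and between 0.19 and 0.57 in knockouts, a log2 ratio of -1.80 (SE 0.12, adjusted p 9.98e-13). Trib3, which binds AKT, rose by 2.29. Rictor, a subunit of the kinase complex that phosphorylates AKT, rose by 0.55 and Sesn3 by 0.81, while Foxo1 fell by 0.52 and Foxo3 by 0.83. The receptor gene Igf1r rose by 0.45 and Akt1 by 0.20, each with overlapping groups.

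The insulin-like growth factor and growth hormone axis changed at the level of hormone, binding proteins and receptor. Igfbp1, a binding protein that insulin represses, lay between 1.41 and 3.98 in controls (median 2.73) and between 7.48 and 8.73 in knockouts (median 8.10). Igfbp2 lay between 5.02 and 5.47 and between 8.27 and 8.78, a log2 ratio of 3.17 (SE 0.16, adjusted p 5.46e-16). Neither gene had groups that overlapped. Igf1 fell by 0.72, Igfals, which stabilises circulating IGF-1, fell by 2.39, and the growth hormone receptor gene Ghr fell by 1.53 with 4 probes between -1.70 and -1.10. Socs2, a target of growth hormone signalling, rose by 1.50 with overlapping groups, and Stat5b rose by 0.57. Of 16 genes of this axis, 9 were called, 4 higher and 5 lower.

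Igfbp1, G6pc and Irs2 rose together, and the 200 bases before their start sites each hold the letters TGTTTTG, the core of the insulin response element, on 1 strand. They are shown to place that motif, which is in capitals (as CAAAACA where it lies on the other strand), on build GRCm38.p6 from RefSeq. Coordinates are chr11:7197587-7197786 (+) for Igfbp1, chr11:101367516-101367715 (+) for G6pc and chr8:11008930-11009129 (-) for Irs2.
Igfbp1: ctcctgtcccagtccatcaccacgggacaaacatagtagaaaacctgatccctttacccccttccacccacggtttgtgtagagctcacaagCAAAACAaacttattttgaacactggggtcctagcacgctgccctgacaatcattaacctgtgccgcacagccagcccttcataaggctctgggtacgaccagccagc
G6pc: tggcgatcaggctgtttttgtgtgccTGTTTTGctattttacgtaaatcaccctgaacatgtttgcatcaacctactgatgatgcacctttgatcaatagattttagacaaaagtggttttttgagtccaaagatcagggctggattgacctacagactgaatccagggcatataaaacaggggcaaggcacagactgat
Irs2: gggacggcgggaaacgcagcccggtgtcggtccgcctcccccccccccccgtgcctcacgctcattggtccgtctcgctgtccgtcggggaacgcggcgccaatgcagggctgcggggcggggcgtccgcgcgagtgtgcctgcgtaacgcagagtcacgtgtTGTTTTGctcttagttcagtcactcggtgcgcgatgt

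The match begins 108 bases before the start in Igfbp1, 174 in G6pc and 37 in Irs2. In windows from 250 bases before to 50 after the start, TGTTTTG on either strand was found in 6.28% of all 32851 promoters in the table. It was in 5.67% of 13247 tested genes with a window, in 5.98% of 2810 genes called higher and in 5.62% of 2956 called lower. The FoxO core TGTTTAC, searched for apart from TGTTTTG, was found in 3.28%, 2.99% and 3.32% of these. A match is a description of the sequence and not of binding, and these windows hold neither distal sites nor most alternative starts.

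Sugar uptake and glycolysis genes moved one way: of 22 tested, 12 were called and all 12 were lower, with a median log2 ratio of -0.25. Pklr, liver pyruvate kinase, lay between 0.02 and 1.16 in controls and between -2.76 and -1.43 in knockouts (log2 ratio -2.46, SE 0.24, adjusted p 1.79e-09). Khk, which phosphorylates fructose, fell by 1.37, Pdk1 by 1.15, the glucose transporter gene Slc2a2 by 0.79 and Pfkfb1 by 0.77. Pfkl (0.03), Gpi1 (0.09), Tpi1 (0.06) and Eno1 (-0.03) were not called. Pdk4, which turns off pyruvate dehydrogenase, was not called either (1.02).

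Glycogen genes were mostly lower, with 13 of 20 called, 3 higher and 10 lower. The branching enzyme gene Gbe1 fell by 1.15, Pgm1 by 0.75, the phosphorylase gene Pygl by 0.73 and the synthase gene Gys2 by 0.48. Against these stood Ppp1r3g, a subunit that targets protein phosphatase 1 to glycogen, at -6.73 to -4.45 in controls and 0.71 to 2.19 in knockouts. Only 2 of 6 controls were well above background for Ppp1r3g, so its fitted log2 ratio of 6.81 (adjusted p 1.78e-13) rests on values near background in controls.

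Gluconeogenesis had 13 of 16 genes called, 8 higher and 5 lower. Pck1, the cytosolic enzyme that makes phosphoenolpyruvate, lay between 6.09 and 7.61 in controls (median 7.12) and between 8.06 and 8.41 in knockouts (median 8.30), a log2 ratio of 1.28. G6pc, which releases free glucose, lay between 4.42 and 5.57 (median 5.35) and between 6.21 and 7.30 (median 6.61), a ratio of 1.43. The groups did not overlap in either gene. The coactivator gene Ppargc1a rose by 1.89, the aspartate aminotransferase gene Got1 by 1.73, Sds by 1.06 and Pck2 by 0.90. Lower were the transcription factor gene Creb3l3 (-0.89), the alanine aminotransferase genes Gpt (-0.77) and Gpt2 (-0.71), the glucose-6-phosphate transporter gene Slc37a4 (-0.47) and Mpc1 (-0.27). Without knockout replicate 6, 6 genes were higher and 5 lower.

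Fatty acid synthesis had 13 of 19 genes called, 1 higher and 12 lower, with a median log2 ratio of -0.77. Srebf1, which encodes the SREBP-1 factor, lay between 6.31 and 6.90 in controls (median 6.72) and between 5.33 and 5.72 in knockouts (median 5.58), a ratio of -1.12 (SE 0.19, adjusted p 1.75e-05). Thrsp, which promotes lipogenesis, moved most: 7.70 to 8.53 in controls (median 8.21) and 2.51 to 3.40 in knockouts (median 3.09). The knockouts of both genes lay below all controls.

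Along the pathway, Acss2 fell by 2.07, Acly by 1.04, Acacb by 1.40, Fasn by 1.29, Scd1 by 1.84 and the NADPH-making enzyme gene Me1 by 1.53. Pnpla3 fell by 3.86, with controls spread from -2.32 to 2.51. Elovl5, an elongase of polyunsaturated fatty acids, was the 1 gene that rose (0.76). Mlxipl, which encodes the sugar sensor ChREBP (-0.14), Elovl6 (-0.21) and Fads2 (0.10) were not called. Acaca fell by 0.41 (adjusted p 0.0204), but not without knockout replicate 6 (adjusted p 0.0506) or without control replicate 6.

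Triglyceride synthesis and lipid droplet genes fell with them, 14 of 23 lower and 2 higher. Gpam, which starts glycerolipid synthesis, lay between 4.87 and 5.80 in controls and between 3.83 and 4.05 in knockouts (log2 ratio -1.40). Dgat2, which makes triglyceride, fell by 1.36, the monoglyceride lipase gene Mgll by 2.00, Plin4 by 1.25, Plin5 by 0.86 and G0s2, an inhibitor of adipose triglyceride lipase, by 2.43. Fitm1 fell by 3.17, with 5 of 6 knockouts well above background. Pnpla2, the triglyceride lipase itself, rose by 0.79 and Plin3 by 0.70. Dgat1 (0.01) and Plin2 (-0.16) were not called.

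Among lipoprotein genes, 15 of 26 were called, 5 higher and 10 lower. Lpl, which clears triglyceride from plasma lipoproteins and is low in adult hepatocytes, lay between -1.28 and 0.09 in controls (median -0.77) and between 2.98 and 3.89 in knockouts (median 3.36), a log2 ratio of 4.04 (SE 0.27, adjusted p 4.98e-13). Angptl8, a feeding-induced protein that acts on lipoprotein lipase, fell by 1.90. Angptl4 was not called (-0.83). The hepatic lipase gene Lipc fell by 0.82 and the phospholipid transfer gene Pltp by 1.29. Scarb1, the HDL receptor, rose by 0.95 and Apom by 1.02. Apob (-0.11) was not called.

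Cholesterol synthesis genes were lower without exception among those called, 16 of 22, with a median log2 ratio of -0.63. Mvd fell by 1.67, Sqle by 1.58, Fdps by 1.49, Nsdhl by 1.46, Insig1 by 1.32 and Tm7sf2 by 1.19. The regulator gene Srebf2 fell by 0.38. Hmgcs1 was not called (-0.65, adjusted p 0.1), except without knockout replicate 6 (-0.81, adjusted p 0.0445).

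Bile acid genes split evenly, 7 higher and 7 lower of 21. Cyp8b1, which sets the share of cholic acid, rose by 1.10, and the sterol and phospholipid exporters Abcg5, Abcg8 and Abcb4 rose by 0.63, 0.98 and 0.67. The bile acid receptor gene Nr1h4 lay between 5.26 and 5.72 in controls and between 3.83 and 4.33 in knockouts, a log2 ratio of -1.42. The transporter gene Slco1a1 fell by 2.94 and Cyp27a1 by 0.60, while Cyp7a1, the rate-limiting enzyme of bile acid synthesis, was not called (0.12).

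Fatty acid oxidation genes were called in 14 of 29, 2 higher and 12 lower. Without replicate 6 of both genotypes, 1 of these genes was higher and 9 were lower. Ppara, the nuclear receptor that drives them, fell by 0.89, the carnitine carrier gene Slc25a20 by 0.97, Fabp1 by 0.88, Acaa1b by 0.73 and Cpt2 by 0.46. Cyp4a10, a fatty acid hydroxylase, rose by 1.58. Cpt1a (0.23) and Acadl (-0.01) were not called.

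**Figure D3:**
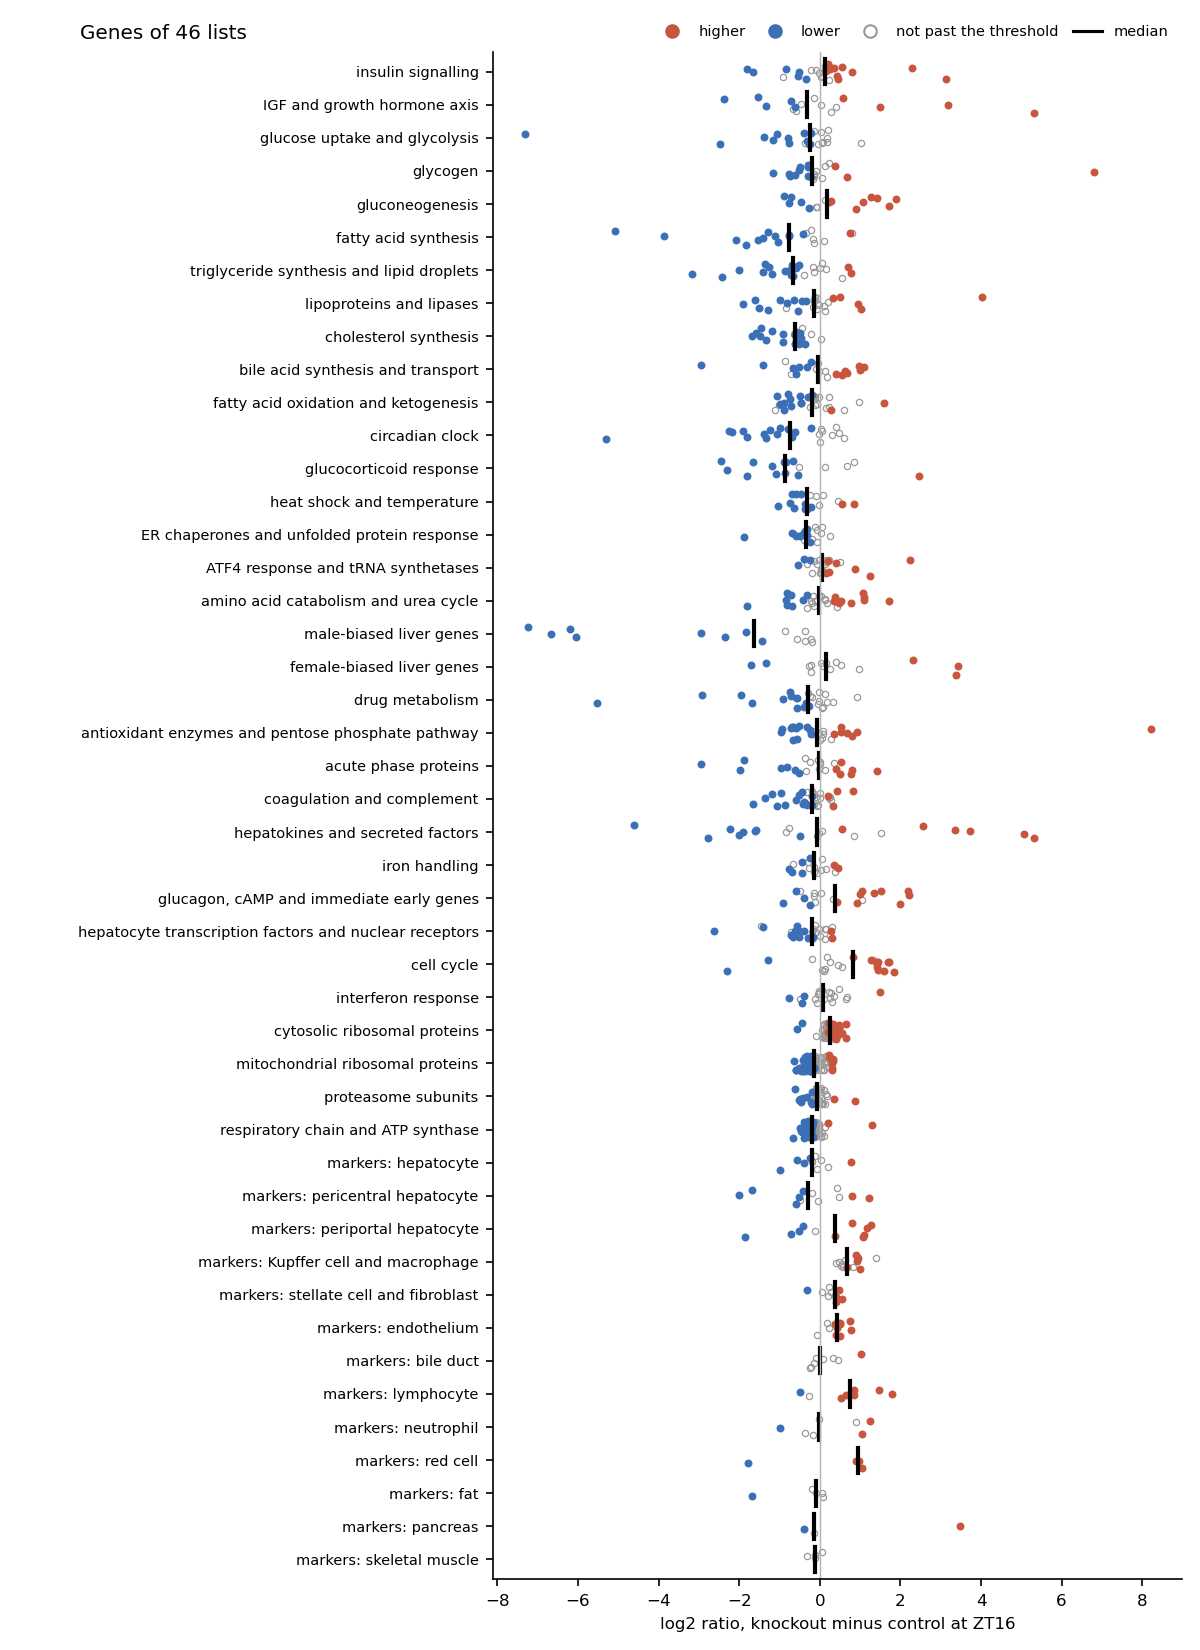
Log2 ratio of knockout to control at ZT16 on the x axis for the members of 46 gene lists on the y axis. Filled points passed the limma threshold (red higher, blue lower in knockouts), open points did not, and black bars are list medians, which run from -1.64 for male-biased liver genes to 0.94 for red cell markers. Genes below background in 1 genotype, such as Ciart and Defb1, are drawn at their fitted ratio.

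Clock genes had 14 of 22 members called and all 14 were lower, with a median log2 ratio of -0.75. The repressor genes Per1, Per2 and Per3 fell by 1.80, 2.26 and 1.90. Per1 lay between 3.49 and 3.92 in controls (median 3.75) and between 1.24 and 2.85 in knockouts (median 1.73). Per2 lay between 3.25 and 3.67 (median 3.53) and between 0.73 and 1.75 (median 1.09). The groups of all 3 genes were separate.

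Usp2, a clock-controlled ubiquitin protease gene, fell by 2.17. The output factors Dbp, Tef and Hlf fell by 1.32, 1.23 and 1.37, Bhlhe40 by 1.00, Cry2 by 0.80 and Nr1d2 by 0.70. Cry1 fell by 0.62 (adjusted p 0.0183), a call lost without control replicate 6 or without knockout replicate 2. Arntl (0.48), which encodes BMAL1, Clock (0.03) and Nr1d1 (0.61, adjusted p 0.053) were not called. Leaving out any of 5 of the 12 arrays turned Nr1d1 into a call, among them knockout replicate 6 (0.77, adjusted p 0.0155).

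Ciart, Per1 and Tef fell together, and the 200 bases before their starts are shown because they hold the E-box CACGTG, the site of BMAL1 and CLOCK, here in capitals (GRCm38.p6, RefSeq). The stretches are chr3:95882229-95882428 (-) for Ciart, chr11:69098749-69098948 (+) for Per1 and chr15:81802473-81802672 (+) for Tef.
Ciart: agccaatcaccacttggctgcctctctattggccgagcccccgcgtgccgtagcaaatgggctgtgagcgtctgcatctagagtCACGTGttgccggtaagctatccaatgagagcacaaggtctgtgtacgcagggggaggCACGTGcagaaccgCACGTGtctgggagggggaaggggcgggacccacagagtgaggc
Per1: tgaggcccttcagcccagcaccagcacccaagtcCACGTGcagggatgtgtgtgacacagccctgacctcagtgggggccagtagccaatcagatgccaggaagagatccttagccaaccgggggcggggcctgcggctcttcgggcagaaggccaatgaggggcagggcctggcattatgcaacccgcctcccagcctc
Tef: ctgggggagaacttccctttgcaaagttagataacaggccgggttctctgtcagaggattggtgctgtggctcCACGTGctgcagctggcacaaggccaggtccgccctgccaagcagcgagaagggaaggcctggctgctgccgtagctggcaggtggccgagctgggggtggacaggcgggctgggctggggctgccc

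Ciart holds 3 E-boxes, which begin 116, 58 and 44 bases before the start. Per1 and Tef hold 1 each, 166 and 127 bases before it. Of 17 clock list genes with a window, 5 held an E-box there (29.4%), so most did not. The same letters were in 7.15% of all 32851 promoter windows, in those of 10.6% of the 13247 tested genes, of 11% of those called higher and of 11.2% of those called lower. CACGTG reads the same on both strands.

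Glucocorticoid-responsive genes followed, with 12 of 16 called, 1 higher and 11 lower, and a median log2 ratio of -0.85. Fkbp5, a chaperone of the glucocorticoid receptor that glucocorticoids induce, lay between 4.56 and 5.22 in controls (median 4.86) and between 1.48 and 2.86 in knockouts (median 2.50). Its ratio was -2.45 (SE 0.25, adjusted p 3.09e-09), and -2.28 without knockout replicate 6, its lowest array. Cdkn1a fell by 2.31, Tsc22d3 by 1.66, Zbtb16 by 1.18 (not called without replicate 6 of both genotypes, -0.79, adjusted p 0.0644), Hsd11b1, which regenerates active glucocorticoid, by 1.08, and the receptor gene Nr3c1 by 0.67.

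Sgk1 was the 1 member that rose (2.46, from 1.00 to 1.71 in controls to 3.42 to 4.32 in knockouts). The metallothionein genes Mt1 (0.68) and Mt2 (0.85) and Tat (0.12) were not called. Per1 stands on this list and on that of the clock. Without replicate 6 of both genotypes, 7 genes of the list were lower and 1 higher.

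Heat shock genes were lower in 10 and higher in 2 of 17. Dnaja1 fell by 1.03, Hsph1 by 0.75, Dnajb1 by 0.64, Chordc1 by 0.58, Hsp90aa1 by 0.47 and Hspa8 by 0.37. Cirbp, a cold-induced RNA-binding protein, lay between 0.67 and 1.05 in controls and between 1.15 and 2.11 in knockouts, a log2 ratio of 0.84. Rbm3, another cold-induced gene, fell by 0.32. Endoplasmic reticulum chaperones and unfolded protein response genes were called in 9 of 20, all lower, led by Herpud1 (-1.88), Sel1l (-0.70) and Pdia3 (-0.59). Xbp1 (-0.12) and Ddit3 (-0.06) were not called.

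The genotype difference at ZT16 was tested against that at the other times. It differed from ZT8 in 2237 genes (9.78%), from ZT12 in 450 (1.97%) and, with 1 sign, from both in 338 (1.48%). Both tests use the same ZT16 arrays. The counts against ZT12 and against both times rested on single arrays: without knockout replicate 1 they were 287 and 223, and without knockout replicate 2 they were 247 and 200. In the clock list, 14 of 22 genes differed from ZT8 and 7 from both times, namely Per1, Per2, Per3, Ciart, Tef, Usp2 and Cry2.

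Per1 had a genotype difference at ZT16 and not before, unlike Per2 and Per3. In controls the mean was 3.70 ± 0.42 at ZT8, then 3.68 ± 0.29 at ZT12 and 3.72 ± 0.18 at ZT16 (SD, n = 6), and knockout means were 3.81 ± 0.33, 3.66 ± 0.40 and 1.85 ± 0.58. The ratios were thus 0.07, 0.02 and -1.80, and that at ZT16 differed from ZT8 (adjusted p 9.78e-05) and from ZT12 (adjusted p 0.00155). Per2 had a control mean of 3.51 ± 0.15 and a knockout mean of 1.21 ± 0.40 at ZT16, against 2.08 ± 0.35 and 2.01 ± 0.36 at ZT8. At ZT12 the Per2 means were already apart, at 3.13 ± 0.11 in controls and 2.19 ± 0.22 in knockouts. Those of Per3 at ZT12 were -0.236 ± 0.175 and -1.043 ± 0.296. Usp2 had ratios of 0.04, -0.88 and -2.17 at the 3 times.

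Fkbp5 rose over the day in controls, from 2.16 ± 0.10 at ZT8 to 3.64 ± 0.53 and 4.89 ± 0.23, while knockouts were at 2.53 ± 0.48, 3.37 ± 0.52 and 2.43 ± 0.50 (SD, n = 6 each). Its ZT16 ratio differed from both other times (adjusted p 3.62e-06 and 0.00155). Cirbp was lower in knockouts at ZT8 (-0.42), not called at ZT12 (-0.07) and higher at ZT16 (0.84). Gm15998, 3930402G23Rik, Lpl and Cela2a had a larger rise at ZT16 than at the other times. The transcription factor gene Atf5 (0.86) and the antioxidant gene Srxn1 (0.92) were called at ZT16, and not at ZT8 or ZT12.

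Of the 6 genes picked by their differences between times, 3 had a genotype difference at ZT16 nearer 0 than at the other times. Cux2, taken up below, had one too. Mt1, a metal-binding protein, rose by 2.84 at ZT8 and 2.60 at ZT12 and was not called at ZT16 (0.68). Pip5k1a, a phosphoinositide kinase gene, rose by 2.89 and 2.85 and was not called at ZT16 (0.69), though 2 other probes had ratios of 0.10 and -0.32 there. Gm32894 fell by 1.45 and 1.84 and was not called at ZT16 (0.40). Each of the 3 was called there, and higher in knockouts, when 1 array was left out: Mt1 without control replicate 4 (0.86, adjusted p 0.0459), Pip5k1a without knockout replicate 3 (0.90, adjusted p 0.0438) and Gm32894 without control replicate 1 (0.64, adjusted p 0.0366).

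**Figure D4:**
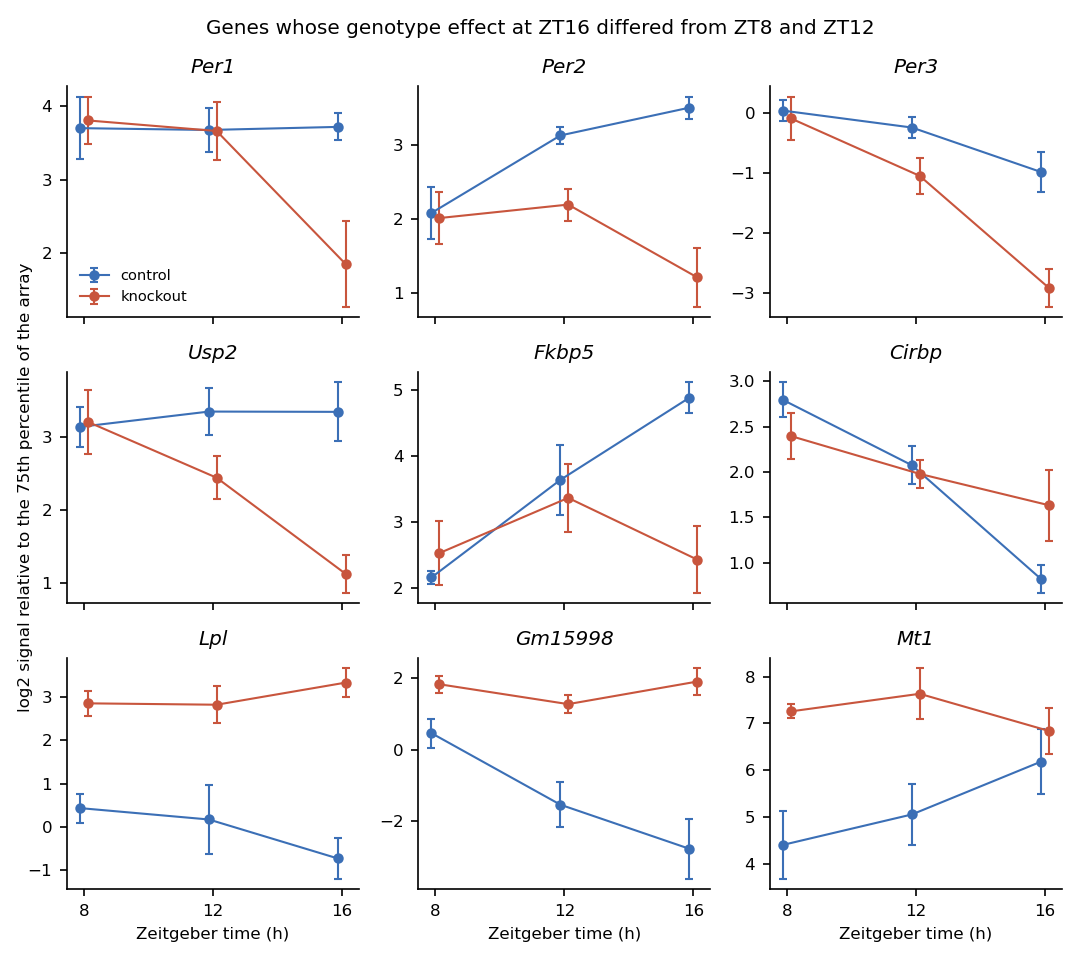
Mean log2 level, scaled to each array's 75th percentile (y axis) by Zeitgeber time (x axis, h) for 9 genes whose genotype difference at ZT16 differed from those at ZT8 and ZT12. Points are means of 6 arrays, error bars are 1 SD, and blue is control and red knockout. Per1 lies at 3.66 to 3.81 in 5 groups and at 1.85 in ZT16 knockouts.

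Amino acid catabolism and urea cycle genes were higher in 9 and lower in 8 of 29. Got1 rose by 1.73, Cth by 1.11, Hal by 1.10, Sds by 1.06 and Cbs by 0.77, whereas Prodh, the first enzyme of proline breakdown, fell from between 6.04 and 6.71 in controls to between 4.14 and 5.01 in knockouts (log2 ratio -1.81). Glud1 and Fah fell by 0.81 each. The urea cycle genes Cps1 (0.02), Otc (-0.16), Ass1 (-0.12) and Asl (-0.21) were not called. Of 25 genes of the ATF4 response and tRNA synthetases, 7 were higher and 3 lower, a median of 0.05. The share called was 40%, as for all genes. With median-centred arrays 4 were higher and 5 lower, with a median of -0.04. Without replicate 6 of both genotypes 5 were higher and 3 lower. Asns, which makes asparagine, lay between -2.55 and -1.25 in controls and between -0.95 and 3.37 in knockouts. Its ratio of 2.25 was 1.77 without knockout replicate 6 (adjusted p 0.0338), its highest array, and 1.55 without replicate 6 of both genotypes (adjusted p 0.0802), which ended the call. Atf4 (0.05) was not called.

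Genes that adult male mice express more than females in liver had a median of -1.64, with 8 of 14 lower and 0 higher. The median was -0.56 among genes above background on all 36 arrays. Cyp2d9 lay between 3.54 and 5.16 in controls and between 1.67 and 3.39 in knockouts, a ratio of -1.83. Mup3, a major urinary protein gene, fell by 2.36 and Ugt2b1 by 1.44. Hsd3b5 (-7.23), Elovl3 (-6.67) and Cyp4a12a (-6.04) fell furthest, each with 1 of 6 knockouts not above background and with a wide control range, from -2.16 to 5.09 for Hsd3b5. Mup1 (-0.37), Mup20 (-0.56) and Mup21 (-0.36) were not called, and probes of Mup paralogs may share signal.

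Genes with higher expression in females did not move one way, with 3 of 15 higher and 2 lower and a median of 0.14 that was 0.79 without replicate 6 of both genotypes. Cux2 rose by 3.44 and Cyp3a44 by 2.31, the latter with overlapping groups, while Cyp2a4 fell by 1.70 and Prlr by 1.33. Cux2 was not well above background on every ZT16 array, so its ratio rests in part on values near background. The ZT16 ratio of Cux2 was smaller than at ZT8 (5.50) and ZT12 (4.96), with adjusted p of 0.000372 and 0.0217 for the differences.

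In drug metabolism, 12 of 25 genes were called, all lower. Aldh1a1, which makes retinoic acid, lay between 7.55 and 8.11 in controls and between 4.03 and 5.40 in knockouts (log2 ratio -2.91, SE 0.17, adjusted p 7.4e-14). Cyp2a5 fell by 1.96, Cyp1a2 by 1.67, Gstp1 by 0.91 and the xenobiotic receptor gene Nr1i2 by 0.71. Cyp3a11 (0.05), Cyp2c29 (-0.03) and Cyp2e1 (-0.19) were not called. Cyp2a5 and Cyp2a4 are close paralogs whose probes may share signal.

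Antioxidant and pentose phosphate genes were called in 19 of 28, 7 higher and 12 lower. Beside Gpx3, the haem oxygenase gene Hmox1 (0.81), Gpx7 (0.67) and Gss (0.54) rose. Catalase, Cat, fell by 0.96 and Sod2 by 0.93, the latter by 1.15 without knockout replicate 6, where it was at 3.92 (other knockouts 2.33 to 2.62). Tkt, Taldo1 and Pgd, which make pentose phosphates or NADPH, fell by 0.66, 0.68 and 0.60, and G6pdx was not called (0.28).

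Secreted liver proteins changed in both directions. Of 21 hepatokine genes, 6 were higher and 8 lower. Fst, whose product binds activins, lay between -2.39 and -0.81 in controls and between 0.96 and 1.99 in knockouts, while the activin subunit genes Inhbe, Inhbc and Inhba fell by 4.60, 2.23 and 1.58. Inhbe lay between 2.12 and 3.53 in controls (median 2.95) and between -1.99 and -1.28 in knockouts (median -1.78). Enho, which encodes adropin, rose by 2.56, while Tsku fell by 2.77 and Lect2 by 2.01. Fgf21 (-0.76) and Gdf15 (0.84) were not called.

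Acute phase genes split as well, 6 higher and 7 lower of 22. These counts were 6 and 5 without replicate 6 of both genotypes. Saa4 fell by 2.95, Saa2 by 1.99 and Hp by 0.60, while the fibrinogen genes Fga, Fgb and Fgg rose by 0.78, 0.52 and 0.40 and Socs3, a feedback inhibitor of cytokine signalling, rose by 1.41. Of 32 coagulation and complement genes 4 were higher and 15 lower, with C6 (-1.66), F11 (-1.36), Masp1 (-1.19) and C8a (-1.07) lowest. Iron genes had 2 of 17 higher and 5 lower, among them the iron exporter gene Slc40a1 (-0.68). The share called was 41.2%, near the 40% of all genes, and none was higher with quantile normalization or with median-centred arrays. Interferon response genes had 4 of 20 called, 1 higher and 3 lower, below the 40% of all genes, and Usp18 alone rose (1.51).

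Glucagon, cAMP and immediate early genes were called in 13 of 20, 9 higher and 4 lower, with a median log2 ratio of 0.38. Nr4a1, a cAMP-induced nuclear receptor gene, lay between -0.94 and -0.52 in controls and between 0.40 and 3.23 in knockouts (ratio 2.21, and 1.87 without knockout replicate 6). Egr1 rose by 2.19, Ier3 by 1.98, Pde4d by 1.51, Fos by 1.34, Junb by 1.04 and Pde4b by 1.01. The adrenergic receptor gene Adra1b fell by 0.91 and Pde3b, a phosphodiesterase that insulin activates, by 0.40. The glucagon receptor gene Gcgr was not called (-0.12).

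Among 30 transcription factors and nuclear receptors of the hepatocyte, 2 were higher and 12 lower, among them Nr1h4 (-1.42), Nr1i2 (-0.71), Foxa3 (-0.63), Thrb (-0.57) and Cebpa (-0.52). Hnf4a (-0.19) was not called. Cell cycle genes were higher in 10 and lower in 2 of 21, with a median ratio of 0.82. The cyclin gene Ccnd1 lay between 1.11 and 2.58 in controls and between 3.21 and 3.62 in knockouts (ratio 1.59). Mcm2 rose by 1.46, Mki67 by 1.44, Plk1 by 1.26 and Cdc20 by 1.68. Cdc20 was 1.30 without knockout replicate 6, and was not called without replicate 6 of both genotypes (1.13, adjusted p 0.0709) or with normexp background correction (0.80, adjusted p 0.0587). The mean of the list was 0.19 in knockout replicate 6 and -1.32 to -0.97 in the other knockouts, against -1.90 to -1.40 in controls. Without replicate 6 of both genotypes, 6 genes of the list were higher and 3 lower. With normexp background correction 5 were higher and 2 lower, with a median of 0.36. Rrm2 (-1.28) and the cell cycle inhibitor Cdkn1a (-2.31) fell.

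Ribosomal and mitochondrial genes shifted little but widely. Of 82 cytosolic ribosomal protein genes 39 were higher and 2 lower, with a median log2 ratio of 0.25 and the largest rises in Rplp0 (0.66) and Rpl12 (0.65). Mitochondrial ribosomal protein genes were mostly lower among those called, 7 of 77 higher and 33 lower (median -0.14), as did 75 genes of the respiratory chain and ATP synthase, 2 higher and 42 lower (median -0.19). Cox7a1 was an exception there (1.29). Proteasome genes were called in 11 of 38, below the share of all genes. Since these medians are small, the scaling matters: with median-centred arrays 13 cytosolic ribosomal protein genes were higher and 2 lower (median 0.155), and mitochondrial ones 0 and 42 (median -0.23), with a respiratory chain median of -0.28. In the authors' deposited table, cytosolic ribosomal protein genes were higher in 67 and lower in 2 cases and mitochondrial ones in 15 and 18. The mitochondrial ribosomal and respiratory chain medians were -0.03 and -0.14 in the authors' deposited table.

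Of 13 Kupffer cell and macrophage markers 5 were higher, none was lower and 8 were not called (38.5% called, against 40% of all genes). Their summed signal was 60.6 to 212 times the 75th percentile in controls and 123 to 414 in knockouts. The macrophage gene Cd5l rose by 0.93 and the monocyte gene Ccr2 by 0.95, while Clec4f (0.58) was not called. Ccr2 was at -1.68 in knockout replicate 6 (other knockouts -3.52 to -2.87), and was not called without replicate 6 of both genotypes (0.64, adjusted p 0.0983) or with normexp background correction (0.28, adjusted p 0.136). Adgre1 (0.90) and Timd4 (1.01) were called, but not without any of 5 and of 7 single arrays. Endothelial markers were higher in 8 of 11, with Tek at 0.77 and Cdh5 at 0.76, and summed to 36 to 53.5 in controls and 47.3 to 59.9 in knockouts. Lymphocyte markers were higher in 6 and lower in 1 of 8, with the B cell gene Ms4a1 at 1.79.

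Red cell genes split, with Hba-a1 (0.91) and Hbb-bt (1.04) higher and Alas2 (-1.77) lower. Stellate cell and fibroblast markers were higher in 4 and lower in 1 of 12, and higher in 0 and lower in 1 with median-centred arrays. Bile duct markers were called in 1 of 8 (Sox9, 1.02). Neutrophil markers were higher in 2 and lower in 1 of 7, and in 0 and 1 without replicate 6 of both genotypes. Fat markers were lower in 1 of 5 (Cfd, dim in both genotypes). All of the macrophage and endothelial markers were well above background on all 12 arrays, in both genotypes. The part of a change in cell make-up in the results above was not tested.

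Hepatocyte markers were called in 5 of 11, 1 higher and 4 lower: Ttr, whose promoter drives the Cre, fell by 0.97, Asgr1 by 0.57, Alb by 0.39 and Trf by 0.23 (not without any of 4 single arrays), and Fga rose. In the authors' deposited table Alb was not called (-0.13, limma adjusted p 0.105), and 2 of these markers were higher and 2 lower. All 11 were well above background on every array, as a liver sample should show. Of 11 markers of the periportal zone, 6 were higher and 4 lower, among them Cyp2f2 (-1.85), Hal (1.10) and Pck1. Of 12 pericentral markers 2 were higher and 5 lower, among them Lgr5 (1.23), Axin2 (0.79) and Cyp1a2 (-1.67). Axin2 was not called with normexp background correction (0.31, adjusted p 0.0558).

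Neighbouring genes were looked at around 2 groups of large falls, a choice made after their values were seen. On chromosome 6, Nat8f6, Nat8f5 and Nat8, which encode acetyltransferases, lie next to each other between positions 85758858 and 85780487 (mm9) and all 3 fell. The ratios of Nat8f5 and Nat8 were -7.04 and -5.54, and Nat8f6, not above background in knockouts, was at least 8.02-fold lower. The ratios of the paralogs on both sides were nearer 0 than those of Nat8f5 and Nat8: Cml3 fell by 0.77, Nat8f2 by 0.83 and Nat8f4 by 0.54, and Nat8f1 was not called (-0.31).

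On chromosome 12, Serpina12, Serpina4-ps1 and Serpina5 lie between positions 105267099 and 105344233. Serpina4-ps1 had a ratio of -5.44. Serpina12 and Serpina5 were not above background in knockouts, where they were at least 6.76-fold and at least 3.08-fold lower. Further along, Serpina3h, Serpina3j, Serpina3k and Serpina3m fell by 1.58, 1.79, 1.23 and 0.77, while Serpina3f, Serpina3g and Serpina3n rose by 1.26, 0.96 and 0.51 (Serpina3n not without any of 6 single arrays). Signal shared between the probes of such paralogs was not tested.

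**Figure D5:**
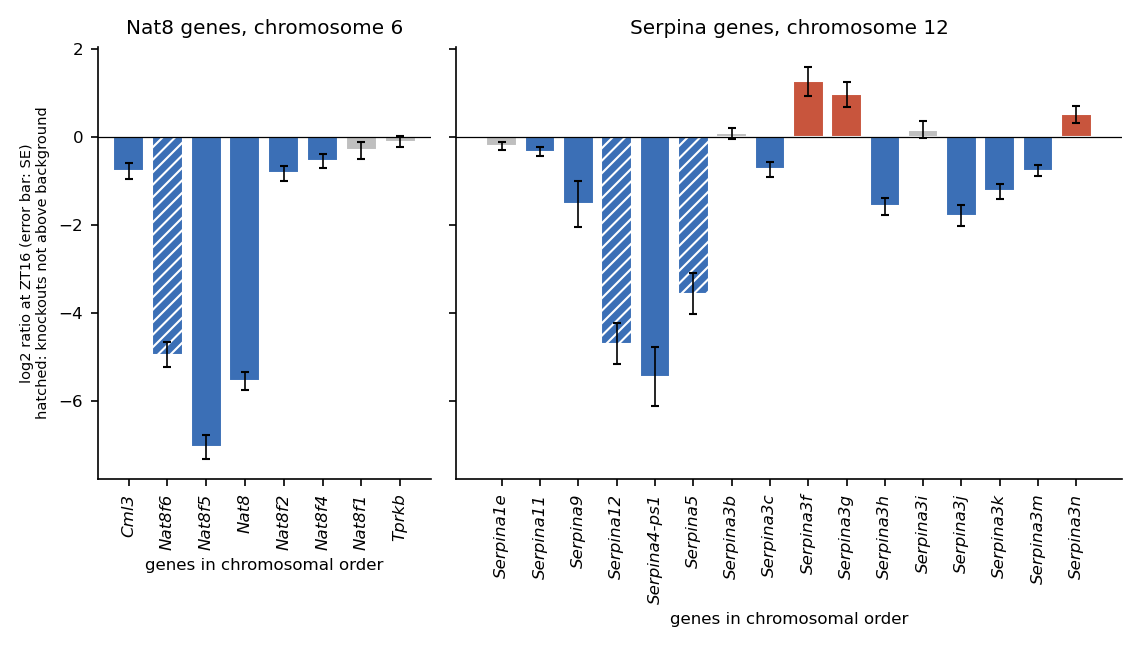
Log2 ratio of knockout to control at ZT16 (y axis, error bars 1 SE of the limma fit) for the named genes of a stretch of chromosome 6 and of chromosome 12, in chromosomal order. Blue bars are lower, red bars higher and grey bars not past the threshold, and hatched bars are genes not above background in knockouts, drawn at a fitted ratio that is no measured fold. Nat8f5 is at -7.04 and Serpina4-ps1 at -5.44.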

How the data were processed

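Total liver RNA of each mouse was hybridised in 1 colour (Cy3) to an Agilent SurePrint G3 mouse array. The deposited scanner files hold spot intensities that Agilent Feature Extraction 10.10.1.1 had background-subtracted and detrended, per the file headers, and flags of each spot. A table of log2 values, normalized between arrays by the authors (equal sorted columns, so quantile normalized as far as the values show), served as an alternative.

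Processed intensities were taken to log2 and centred on the 75th percentile of each array, outlier-flagged spots were left out, spots of a probe were averaged, and probes well above background on at least 6 of 36 arrays were kept (34769 of 56605). The brightest probe stood for a gene, 22883 in all. Names were matched to RefSeq by accession for 33881 probes, and for 12766 the name in the file was kept. limma 3.58.1 in R 4.3.3 fitted all 36 arrays with 6 group means and the wash batch of the labels (control arrays 1, 2 and 3 and knockout arrays 2, 2 and 2 in batches 1, 2 and 3), with Benjamini-Hochberg adjustment over all genes and a threshold of 0.05. Insr alone was also tested by exact permutation.

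The largest changes named, 12 in each direction, are of called genes with a symbol whose 12 arrays all exceeded background and whose groups were separate; of bounds 3 in each direction, of differences between times 6, and of each of the 46 lists up to 4 called members plus members whose role is described. Some genes that these rules pick are not reported here. The comparison, the lists and the rules were chosen with earlier results of these data known. Checked on simulated data with 22883 genes, the fit called 71 of 100 genes changed by a log2 of 1 and 41 of 100 changed by 0.5. The other genes of that check were left unchanged, whereas 40% of all genes were called at ZT16. The adjusted p of a gene depends on how many others change, so these shares hold for that check only. The share of changed genes that the fit finds in the mouse data was not tested. Probe positions are on mm9 and promoters on GRCm38.p6. The number of arrays limits the precision. Replicate numbers were not used to pair the mice in the main fit. Alternatives covered background correction, scaling, filters, probe choice, wash batch, slide, array weights and arrays left out. Leaving out replicate 6 of both genotypes together was added after seeing the data.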

Additional observations from a re-analysis of the deposited data

Results flagged for a closer look

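In 48 of 456 groups of 6 values that were searched, 1 array stood apart from the other 5 by Dixon's criterion, where chance at 1 in 20 gives 22.8. Of these, 29 fell on knockout replicate 6 and 6 on control replicate 6. Values are log2 levels, with the range of the other 5 arrays in parentheses. Knockout replicate 6 was the highest knockout for 3930402G23Rik at 1.996 (1.026 to 1.343), Pik3r1 at 0.57 (0.192 to 0.306), Ppargc1a at 2.891 (2.352 to 2.546), Asns at 3.367 (-0.955 to 0.357), Sod2 at 3.922 (2.33 to 2.619), Cdc20 at 0.51 (-2.591 to -1.561), Cox7a1 at 3.998 (2.479 to 2.762), Cdh1 at 3.28 (2.605 to 2.684) and Ccr2 at -1.684 (-3.52 to -2.87). It was the lowest knockout for Ntf3 at -0.321 (0.73 to 1.261), Fkbp5 at 1.478 (2.407 to 2.858), Pklr at -2.758 (-1.928 to -1.433), Khk at 5.867 (6.541 to 6.824), Pdk1 at 2.281 (2.901 to 3.27), Dgat2 at 5.806 (6.234 to 6.412), Shmt2 at 3.263 (3.441 to 3.546), Mup3 at 5.787 (7.295 to 7.581), Cyp2d9 at 1.666 (2.939 to 3.388), Cyp1a2 at 0.618 (1.792 to 2.242), C8a at 4.314 (4.63 to 4.812), Klf10 at -0.74 (0.76 to 0.929) and Tek at -2.286 (-1.712 to -1.537). By mean over a list, it stood apart for glycogen at 2.315 (2.431 to 2.47), drug metabolism at 4.19 (4.407 to 4.527), coagulation and complement at 5.8 (5.948 to 6.013), glucagon and cAMP and immediate early genes at 0.77 (0.26 to 0.373), cell cycle at 0.191 (-1.321 to -0.97), respiratory chain and ATP synthase at 6.437 (6.208 to 6.283) and markers of skeletal muscle at -3.539 (-3.278 to -3.167). On control replicate 6, the array stood apart for Scd1 at 7.063 (7.837 to 8.274), Slco1a1 at 2.562 (3.715 to 4.173), Bag3 at 3.444 (4.064 to 4.384), Cyp2d9 at 3.536 (4.815 to 5.157), Klf10 at 2.159 (0.985 to 1.397) and markers of stellate cell and fibroblast at 1.377 (0.822 to 0.991). Elsewhere, the array apart was for Insr at -3.751 (-3.236 to -3.078) on knockout replicate 5, Nat8f6 at -5.377 (-7.796 to -6.934) on knockout replicate 3, Khk at 7.727 (7.965 to 8.098) on control replicate 1, G6pc at 4.425 (5.238 to 5.57) on control replicate 5, Pltp at 0.721 (-0.394 to -0.141) on knockout replicate 2, Slc40a1 at 3.52 (3.907 to 4.032) on control replicate 4, Ier3 at -1.368 (-2.113 to -1.837) on knockout replicate 5, Cox7a1 at 1.981 (1.217 to 1.465) on control replicate 3, Ndufs8 at 5.269 (5.427 to 5.466) on knockout replicate 4, Timd4 at 0.86 (-0.956 to -0.705) on knockout replicate 2, Cd5l at 6.356 (5.142 to 5.389) on knockout replicate 2, Kdr at 3.299 (3.026 to 3.11) on knockout replicate 4 and proteasome subunits at 4.18 (3.868 to 3.967) on knockout replicate 5.

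Among the genes picked by a ranking, 17 had a genotype difference at ZT16 that differed from both ZT8 and ZT12 in limma. Genes named for their role, such as Tef, Cry2 and Cux2 above, were not searched here. The difference of log2 ratios against ZT8 is given, with the adjusted p against ZT8 and against ZT12. It was above 0 for Gm15998 3.343 (adjusted p 3.62e-06 and 0.0129), 3930402G23Rik 1.708 (adjusted p 0.000756 and 0.0263), Lpl 1.566 (adjusted p 0.00611 and 0.0387), Cela2a 2.14 (adjusted p 0.000127 and 0.0326), Gm32894 1.852 (adjusted p 0.00102 and 0.00155), Cirbp 1.263 (adjusted p 7.26e-05 and 0.0089), Atf5 0.777 (adjusted p 0.0157 and 0.00718) and Srxn1 0.823 (adjusted p 0.00231 and 0.00728). It was below 0 for Ciart -4.112 (adjusted p 3.35e-07 and 0.00419), Pip5k1a -2.208 (adjusted p 0.00406 and 0.0181), Fkbp5 -2.842 (adjusted p 3.62e-06 and 0.00155), Mt1 -2.164 (adjusted p 0.00285 and 0.0263), Per1 -1.872 (adjusted p 9.78e-05 and 0.00155), Per2 -2.157 (adjusted p 3.21e-07 and 0.00155), Usp2 -2.213 (adjusted p 1.98e-06 and 0.00718), Per3 -1.75 (adjusted p 8.46e-06 and 0.00744) and Cyp2a5 -1.728 (adjusted p 7.99e-05 and 0.029). Ciart was above background on none of the 6 ZT16 knockouts, so its value is a fitted one and no measured size.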

How the results depend on the processing

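The count of called genes was 8272 to 10786 over the other settings, against 9156. The count changed at least 2-fold was 675 with normexp background correction, 836 in the authors' deposited table and 948 among genes above background on all 36 arrays, against 1601. Differences from ZT12 numbered 226 with median scaling, 256 without a filter and 1079 with array weights, against 450. Those from both times numbered 194, 211 and 796, against 338, and those from ZT8 numbered 4010 with array weights, against 2237. Leaving out 1 array of ZT16 or of another time, 8196 to 9810 genes were called, and 247 to 669 differed from ZT12 and 200 to 476 from both times, the lowest without knockout ZT16 replicate 2 and the highest without knockout ZT8 replicate 3. The Insr ratio was -1.954 within wash batch 1. That batch held 1 ZT16 control, the outlying replicate 6, and knockout replicates 3 and 6. In batch 1 Cyp3a44 (-1.268), Tfrc (0.131) and Dcn (-0.116) turned sign, as did Ctrb1 (0.15) in batch 2. The cause was not tested.

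For named genes, 2117 of 2158 values under other settings kept their direction and side of the threshold and 41 fell short of it. With 1 array, or replicate 6 of both genotypes, left out, 73 of 2534 fell short and 3 newly passed. Within single wash batches, 146 of 543 values moved by at least the SD within groups and 4 turned sign. Under other settings 38 of 552 list medians moved by at least the SD of the list mean. With the replicate block, 9008 genes were called. Deviations of same-numbered mice from their group means had correlations of -0.00783 to 0.146, highest for replicate 6. Mice of different numbers were not compared in this way, so whether the numbers pair mice was not tested. Genes near background have ratios that the background correction sets.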
